A study of Mus musculus with 28 samples.

Results

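Genes of the resting adventitial fibroblast (*Inmt*, *Fmo2*, *Smpd3*, *Spock2*, *Vit*, *Clec3b*, *Dpt*, *Pi16*, *Gsn* and *Apod*; 10 in all) were followed from the contralateral jugular vein through the remodeling of the mouse arteriovenous fistula (AVF). The 10 genes were picked by name because earlier results of these data had shown them higher in contralateral veins than in AVFs, so their loss after anastomosis is described here and not tested. All 10 were found among the 56980 genes of the bulk table, all 10 were among the 12673 genes with a mean normalized count of at least 100, and all 10 were in the gene list of each single-cell library.

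The adventitia is the outer coat of a vein, and its fibroblasts lay down and maintain the collagen-rich matrix around the muscle layer. In unperturbed tissue these cells divide rarely, carry enzymes that handle amines, drugs and lipids, and secrete small matrix and plasma-binding proteins. Fibroblasts marked by *Dpt* and *Pi16* are described in many organs as a common resting pool. After injury, fibroblasts become contractile or matrix-producing cells that express genes such as *Postn* and *Acta2*.

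The libraries came from male and female C57BL/6 mice that had all undergone 5/6 nephrectomy, a model of kidney failure, and then an AVF made by joining the cut jugular vein, end to side, onto the carotid artery. Bulk RNA-seq, with 1 vessel of 1 mouse per library, covered 7 contralateral veins (5 female, 2 male), 8 early AVFs (3 female, 5 male, labeled day 3), 5 mid AVFs (3 female, 2 male, day 10) and 5 late AVFs (3 female, 2 male, day 21). The study reports a spread of harvest days within each AVF group, widest in the early group, so the labeled days are nominal. Contralateral veins were taken from operated, uremic mice, so they are not veins of healthy animals. Single-cell RNA-seq covered 1 pool of 10 vessels of both sexes each for contralateral veins, early AVFs and late AVFs, with no day given in the labels. Each condition thus has 1 single-cell library and no test was possible there, and the pools drew on fewer mice than vessels, so veins and AVFs of the same mouse may be among them. Library totals ranged from 20254173 to 67457501 counts in bulk. Values are counts scaled to a common library total (CPM), given as mean ± SD over libraries. In bulk tissue, fewer cells of a type and less RNA per cell cannot be told apart.

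Fibroblast markers were present throughout: the 11 genes used to mark fibroblasts summed to 17934–49216 CPM in contralateral veins and to 4533–47904 CPM in early AVFs. They summed to 46577–71707 CPM in mid and 41203–78882 CPM in late AVFs. Monocyte and macrophage markers (8 genes) were at 1770–7156 CPM in veins and 11716–26881 CPM in early AVFs. Neutrophil markers (6 genes) were at 3.70–170 and 250–3090 CPM. Endothelial markers (8 genes) were at 2047–3419 CPM in veins and 239–649 CPM in early AVFs, and smooth muscle markers (7 genes) at 8826–19627 and 1082–1967 CPM. Adipocyte markers (6 genes) ranged from 1336 to 8877 CPM in veins, from 32.5 to 3938 CPM in early and from 476 to 1850 CPM in late AVFs. Skeletal muscle markers (6 genes) reached 8908 CPM in 1 late AVF, and thyroid or parathyroid markers (6 genes) reached 14423 CPM in 1 early AVF. The part of these neighboring tissues in the levels below was not tested, apart from the fits without the libraries that carried them.

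*Inmt* (ENSMUSG00000003477, chr6:55170626-55175043, minus strand, GRCm38) encodes indolethylamine N-methyltransferase, which methylates tryptamine and related amines. It ranged from 227 to 819 CPM in contralateral veins (median 558), from 2.07 to 15.7 CPM in early AVFs (median 5.35), was 1.35, 3.28, 6.89, 8.18 and 8.71 CPM in mid AVFs, and 13.9, 18.1, 19.1, 19.1 and 29.6 CPM in late AVFs. No AVF library came near a vein: the highest of 18 AVF values was 29.6 CPM and the lowest vein 227 CPM. Means were 558 ± 188, 7.43 ± 5.61, 5.68 ± 3.22 and 19.9 ± 5.80 CPM, so early, mid and late AVFs held 1.33%, 1.02% and 3.57% of the vein level. The log2 fold changes against veins were -6.15 ± 0.54 (SE), -6.82 ± 0.69 and -5.01 ± 0.63, and these 3 contrasts share the same 7 veins.

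*Fmo2* (ENSMUSG00000040170, chr1:162874317-162898726, minus strand) encodes a flavin-containing monooxygenase that oxidizes nitrogen and sulfur groups of foreign compounds. It ranged from 485 to 954 CPM in veins (median 643) and from 18.0 to 76.9 CPM in early AVFs (median 63.1), was 84.4, 104, 106, 106 and 224 CPM in mid AVFs, and 115, 173, 179, 224 and 225 CPM in late AVFs. The levels stepped up from early to late AVFs without reaching any vein, and early and mid AVFs did not overlap. Early, mid and late AVFs held 8.09%, 18.3% and 26.8% of the vein mean, with log2 fold changes of -3.66 ± 0.28, -2.66 ± 0.33 and -2.10 ± 0.32.

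*Gsn* (ENSMUSG00000026879, chr2:35256380-35307892, plus strand) encodes gelsolin, an actin-severing protein made in a cytoplasmic and a secreted form. It was the most abundant of the 10 per length of transcript in veins. It ranged from 5387 to 12524 CPM in veins (median 9746) and from 313 to 1046 CPM in early AVFs (median 615), was 988, 1293, 1305, 1388 and 1976 CPM in mid AVFs, and 1996, 2495, 3201, 4041 and 4122 CPM in late AVFs. All late AVFs were above all mid AVFs, and all veins above all AVFs. Log2 fold changes against veins were -3.93 ± 0.25, -2.92 ± 0.29 and -1.71 ± 0.27.

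At all 3 time points *Inmt*, *Fmo2*, *Gsn* and *Vit* stood below every vein. The proximal promoters of the first 3 are shown from the RefSeq promoter table (GRCm38.p6), which has no window for *Vit*. That table lists 10 windows for 7 of the 10 genes and 32851 windows in all, each from 250 bases before to 50 bases after a start. Annotated exon bases were left out of the print, and capitals mark a TATAAA or a GGGCGG on either strand.
*Inmt*, chr6:55175044-55175240, minus strand: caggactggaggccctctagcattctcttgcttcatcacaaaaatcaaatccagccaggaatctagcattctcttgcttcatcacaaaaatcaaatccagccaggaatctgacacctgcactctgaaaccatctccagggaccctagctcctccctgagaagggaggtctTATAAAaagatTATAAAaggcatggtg
*Fmo2*, chr1:162898759-162899008, minus strand: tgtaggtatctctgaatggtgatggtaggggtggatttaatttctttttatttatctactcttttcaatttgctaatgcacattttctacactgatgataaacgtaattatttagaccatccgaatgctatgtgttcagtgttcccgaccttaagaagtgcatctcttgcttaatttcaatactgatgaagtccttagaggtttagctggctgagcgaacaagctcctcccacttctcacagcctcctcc
*Gsn*, chr2:35256109-35256358, plus strand: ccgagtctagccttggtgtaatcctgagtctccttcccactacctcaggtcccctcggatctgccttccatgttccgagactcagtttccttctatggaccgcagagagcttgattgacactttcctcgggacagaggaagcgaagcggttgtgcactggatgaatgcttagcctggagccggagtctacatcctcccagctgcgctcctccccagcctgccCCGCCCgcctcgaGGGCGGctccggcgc

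The *Inmt* window held 2 TATAAA, 80 and 69 bases before the RefSeq start that defines it and 27 and 16 bases before the start in the GENCODE annotation, and a stretch of 46 bases that occurs 2 times in direct succession: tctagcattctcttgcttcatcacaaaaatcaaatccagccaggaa. Exact repeats of at least 40 bases were found in 112 of the 32851 windows (0.341%). Of the 2 *Fmo2* windows, the one printed held none of the 5 motifs searched on both strands, and the other held a forkhead motif. The first of the 3 *Gsn* windows held 3 GC boxes, of which the 2 before the start are in the printed stretch. Over the 10 member windows, TATAAA was found in 2 (13.6% of all windows), CCAAT in 3 (37.4%), GGGCGG in 3 (35.7%), the AP-1 motif TGANTCA in 0 (7.81%) and the forkhead motif TGTTTAC in 1 (3.65%). These counts describe the letters of the windows only.

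*Smpd3* (ENSMUSG00000031906, chr8:106252548-106337988, minus strand) encodes neutral sphingomyelinase 2, which cleaves sphingomyelin to ceramide. It was scarce and variable in veins, from 2.51 to 30.9 CPM (median 9.93), and ranged from 0.264 to 8.45 CPM in early AVFs (median 1.84). It was 2.89, 2.91, 4.89, 5.40 and 9.31 CPM in mid AVFs and 9.60, 12.7, 13.9, 17.8 and 25.9 CPM in late AVFs. The late libraries lay inside the range of the veins and above all mid and early AVFs. The log2 fold change was -2.56 ± 0.62 early, -1.67 ± 0.71 mid and -0.01 ± 0.68 late.

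*Spock2* (ENSMUSG00000058297, chr10:60106219-60135198, plus strand) encodes testican-2, a matrix proteoglycan. It ranged from 2.57 to 41.7 CPM in veins (median 24.4) and from 0.760 to 38.8 CPM in early AVFs (median 1.01). It was 1.20, 1.59, 2.25, 2.61 and 3.38 CPM in mid AVFs and 1.35, 1.76, 1.83, 5.70 and 9.14 CPM in late AVFs. One early AVF (replicate 7) alone carried the level of a vein, and the other 7 stood at 2.25 CPM or less. The early log2 fold change was -2.15 ± 0.83 with this library and -4.26 without it, and the mid and late values were -3.64 ± 1.07 and -2.82 ± 1.02 (late -3.49 without late replicate 16).

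*Vit* (ENSMUSG00000024076, chr17:78508064-78627408, plus strand) encodes vitrin, a matrix protein with von Willebrand factor A domains. It ranged from 27.5 to 199.6 CPM in veins (median 52.4) and from 0.169 to 6.43 CPM in early AVFs (median 3.37), was 3.92, 5.56, 6.70, 8.32 and 12.8 CPM in mid AVFs, and 7.39, 9.88, 13.3, 15.3 and 17.7 CPM in late AVFs. All 18 AVFs were below the lowest vein, and all late above all early AVFs. Log2 fold changes against veins were -4.84 ± 0.60, -3.83 ± 0.70 and -3.05 ± 0.67.

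*Clec3b* (ENSMUSG00000025784, chr9:123150946-123157432, plus strand) encodes tetranectin, a secreted lectin-like protein that binds plasminogen. It ranged from 47.7 to 235 CPM in veins (median 99.4) and from 0 to 39.1 CPM in early AVFs (median 8.52). The early AVF replicate 6 had 0 counts of 53097813, which allows a level of up to 0.0565 CPM by counting error alone. Mid AVFs were at 38.0, 48.0, 49.4, 50.4 and 57.9 CPM and late AVFs at 40.4, 61.5, 80.8, 88.3 and 89.7 CPM. Early AVFs lay below every vein, whereas mid and late AVFs overlapped the lower veins, which were those of females. Vein and late means were 82.5 and 86.3 CPM in females but 228 and 50.9 CPM in males (2 males per group). Log2 fold changes were -3.54 ± 0.74, -1.52 ± 0.82 and -0.94 ± 0.80, and the early value was -4.17 without early replicate 10.

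*Dpt* (ENSMUSG00000026574, chr1:164796644-164824266, plus strand) encodes dermatopontin, a small matrix protein that binds decorin and collagen fibrils. It ranged from 738 to 1611 CPM in veins (median 887) and from 49.3 to 794 CPM in early AVFs (median 257). It was 664, 728, 807, 864 and 886 CPM in mid AVFs and 705, 732, 741, 807 and 867 CPM in late AVFs. Mid and late AVFs stood at 80.4% and 78.4% of the vein mean, with log2 fold changes of -0.52 ± 0.39 and -0.56 ± 0.39, after an early value of -1.83 ± 0.35.

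*Pi16* (ENSMUSG00000024011, chr17:29317680-29330593, plus strand) encodes peptidase inhibitor 16, a secreted or membrane-anchored CAP family protein. It ranged from 121 to 367 CPM in veins (median 201) and from 0.546 to 167 CPM in early AVFs (median 40.6). It was 161, 204, 238, 255 and 301 CPM in mid AVFs and 134, 224, 298, 376 and 475 CPM in late AVFs. No mid or late library was below the lowest vein. Log2 fold changes were -2.0 ± 0.62 early, -0.03 ± 0.68 mid and 0.36 ± 0.68 late.

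*Apod* (ENSMUSG00000022548, chr16:31296192-31314808, minus strand) encodes apolipoprotein D, a lipocalin that carries small lipids. It ranged from 205 to 1143 CPM in veins (median 332) and from 7.85 to 487 CPM in early AVFs (median 181). It was 70.8, 112, 119.9, 197 and 318 CPM in mid AVFs and 105, 139, 156, 159.6 and 610.0 CPM in late AVFs. The groups overlapped at each time point, and the log2 fold changes were -1.16 ± 0.58, -1.75 ± 0.70 and -1.23 ± 0.68. Vein and early means were 577 and 187 CPM in females (5 and 3 libraries) but 241 and 252 CPM in males (2 and 5 libraries). Without late replicate 16, at 610.0 CPM, the late value was -2.03.

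**Figure D1:**
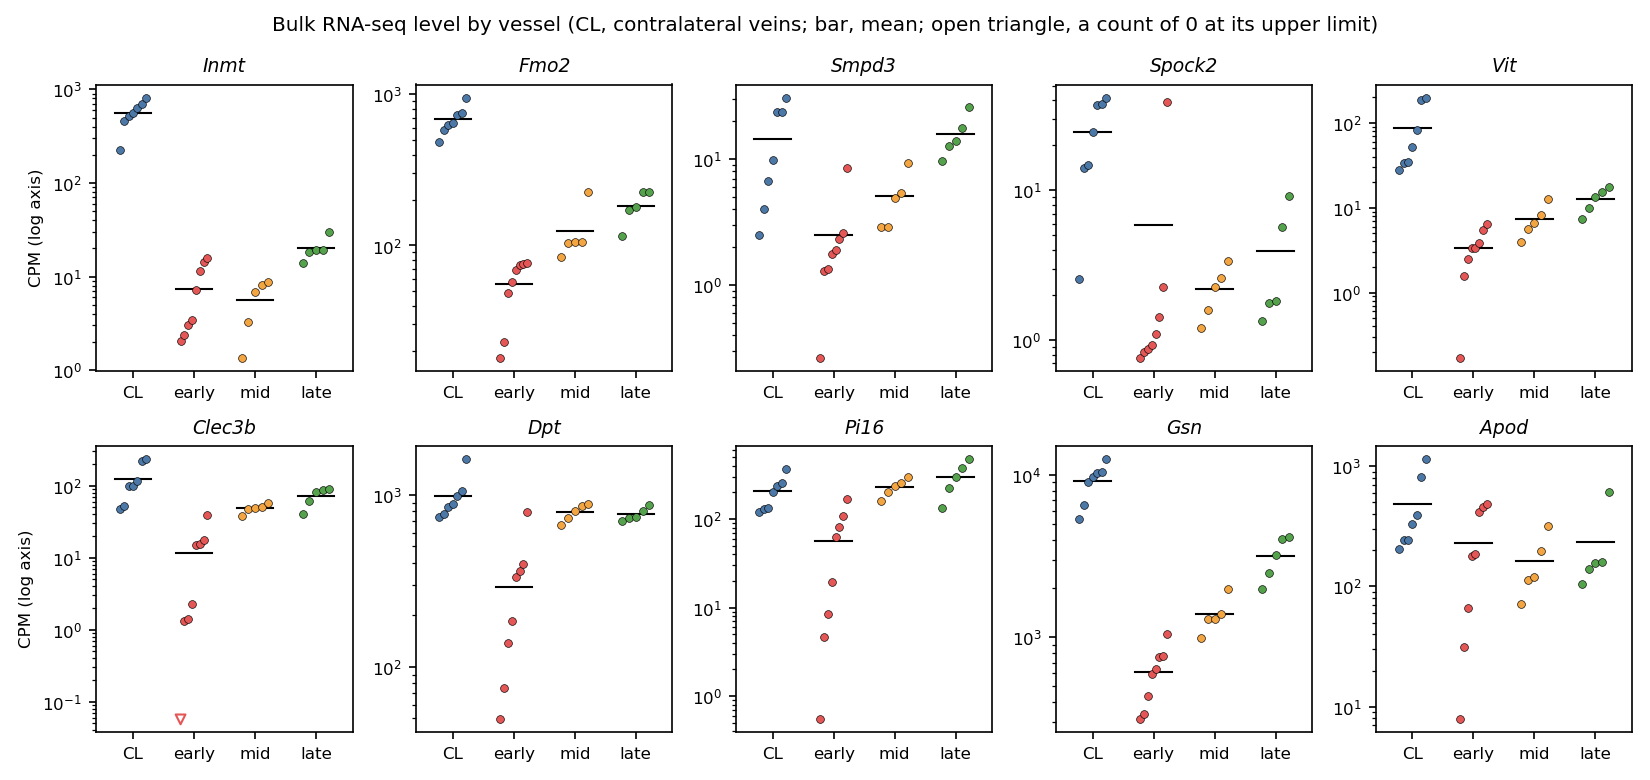
Each panel plots 1 gene, with the 4 bulk groups on the horizontal axis and CPM on a logarithmic vertical axis. Each point is 1 library, and the open triangle marks the early AVF with 0 *Clec3b* counts, drawn at its upper limit of 0.0565 CPM. *Inmt*, *Fmo2*, *Vit* and *Gsn* stay below all veins at each time point, whereas the late values of *Smpd3*, *Spock2*, *Clec3b*, *Dpt*, *Pi16* and *Apod* overlap those of the veins.

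The 10 genes together made up 0.891–1.56% of all counts in veins (median 1.30%). The median share was 0.138% in the early group, 0.269% in the mid group and 0.473% in the late group. Called lower means an adjusted p under 0.01 and a log2 fold change of at least 1 in size. By that rule 7 of 10 were lower in early AVFs (*Inmt*, *Fmo2*, *Smpd3*, *Vit*, *Clec3b*, *Dpt*, *Gsn*), beside 6.45% of all genes tested. In mid and in late AVFs 4 of 10 were called lower (*Inmt*, *Fmo2*, *Vit*, *Gsn*), beside 3.31% and 2.85%. Ranges lay wholly below those of the veins for 5, 4 and 4 members, beside 2.33%, 3.38% and 2.85% of all genes. Since the members were chosen for being lower in AVFs, these shares describe the choice and are no evidence of their own. The count of 7 was 3 in female mice alone, and the late count of 4 was 1 in female mice alone and 1 without the AVFs that carried skeletal muscle or parathyroid markers. The median log2 fold change of the 10 was -3.05, -2.20 and -1.47, and that of all genes tested -0.01, -0.10 and -0.09.

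Levels of different genes were compared per kilobase of annotated exon. In veins the order of mean CPM per kb was *Gsn* (2898), *Dpt* (569.8), *Inmt* (349), *Apod* (187), *Clec3b* (125), *Fmo2* (122), *Pi16* (32.3), *Vit* (27.3), *Spock2* (4.46) and *Smpd3* (2.77). The ranges of neighbors in this order overlapped, except between *Gsn* and *Dpt*, between *Fmo2* and *Pi16*, and between *Vit* and *Spock2*. In late AVFs *Inmt* had dropped from the third to the seventh place, at 12.5 CPM per kb, below *Fmo2* (32.7) and above *Vit* (3.95), and its range overlapped neither. In mid AVFs *Dpt* (458 CPM per kb) and *Gsn* (440.3) overlapped at the top.

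The 8 early AVFs were not alike. Platelet markers (5 genes) summed to 2756–8807 CPM in replicates 3, 5, 6 and 7 and to 408–1159 CPM in replicates 1, 2, 4 and 10, while fibroblast markers summed to 4533–19527 CPM in the former and 30665–47904 CPM in the latter. *Clec3b* was 0–2.24 CPM in the former and 14.8–39.1 CPM in the latter. *Pi16* was 0.546–19.4 against 61.9–167 CPM, *Dpt* 49.3–184 against 331–794 CPM, and *Gsn* 313–591 against 639–1046 CPM. For these 4 genes the 2 sets of early libraries did not overlap. *Inmt* (3.00–15.7 against 2.07–11.3 CPM), *Fmo2* (18.0–76.9 against 48.2–75.6 CPM) and *Apod* (7.85–487 against 66.0–456 CPM) overlapped. The sets were told apart by their platelet markers after the data were seen, and no test was run between them.

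The design also asks how the AVF changes with time. These contrasts were not used to choose the genes, but the early libraries they rest on were. Choosing genes for low AVF values can favor a rise from early AVFs. The member counts and adjusted p below are therefore descriptive and no evidence of their own. By edgeR's quasi-likelihood test with Benjamini-Hochberg adjustment over all 12673 genes, 2 of the 10 were called higher in late than in early AVFs, beside 0.726% of all genes. The 92 genes behind that share were 29 to 34 without late replicate 16, 17, 19 or 24, 55 to 59 without late replicate 23 or early replicate 3 or 5, 140 without early replicate 10, 144 without contralateral replicate 28 and 169 by DESeq2. The 2 members were *Gsn* (log2 fold change 2.21 ± 0.25, adjusted p = 1.57e-05) and *Fmo2* (1.56 ± 0.28, adjusted p = 0.00241). The call of *Fmo2* was lost without late replicate 16 or 17 (log2 fold change 1.5 or 1.43), without the platelet-rich early AVFs (1.40) and without the muscle- or parathyroid-bearing AVFs (1.75). In female mice alone the calls of *Fmo2* (1.66) and *Gsn* (2.74) were both lost.

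Another 4 members had a late-over-early difference with an adjusted p between 0.01 and 0.05 by the same edgeR test: *Smpd3* (2.55 ± 0.66, adjusted p = 0.0157), *Pi16* (2.36 ± 0.66, adjusted p = 0.0265), *Clec3b* (2.60 ± 0.76, adjusted p = 0.0334) and *Dpt* (1.27 ± 0.37, adjusted p = 0.0354). *Smpd3* passed the threshold without early replicate 7 (3.09), and *Clec3b* (3.18), *Pi16* (2.81) and *Dpt* (1.64) without early replicate 10. *Vit* (1.78 ± 0.57, adjusted p = 0.0566), *Inmt* (1.13 ± 0.48, adjusted p = 0.200), *Spock2* (-0.67 ± 0.91, adjusted p = 0.908) and *Apod* (-0.07 ± 0.64, adjusted p = 0.991) did not pass. For *Spock2* the sign itself rested on early replicate 7: without it the value was 1.44. Ranges of late AVFs lay above those of early AVFs for 5 members (*Fmo2*, *Smpd3*, *Vit*, *Clec3b*, *Gsn*), beside 9.58% of all genes.

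Between mid and early AVFs no member was called by edgeR (1 of all genes was called higher, 0.00789%), 5 of 10 had an unadjusted p under 0.05, and DESeq2 called 1 higher, beside 56 of all 12644 genes it tested. Only the *Fmo2* ranges did not overlap, beside 4.86% of all genes above. The largest of these differences by adjusted p was *Gsn* (1.01 ± 0.25, adjusted p = 0.0186). Between late and mid AVFs no gene of the table was called by edgeR (0%), 3 members had an unadjusted p under 0.05 and DESeq2 called no member. All late AVFs nevertheless lay above all mid AVFs for *Inmt*, *Smpd3* and *Gsn*, beside 1.13% of all genes. Whether the change with time differed between the sexes was asked with an interaction term: no member passed an adjusted p of 0.05 by edgeR (0.103% of genes did), 2 of 10 had an unadjusted p under it (*Gsn* 0.0429, *Spock2* 0.0471), and DESeq2 called no member.

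**Figure D2:**
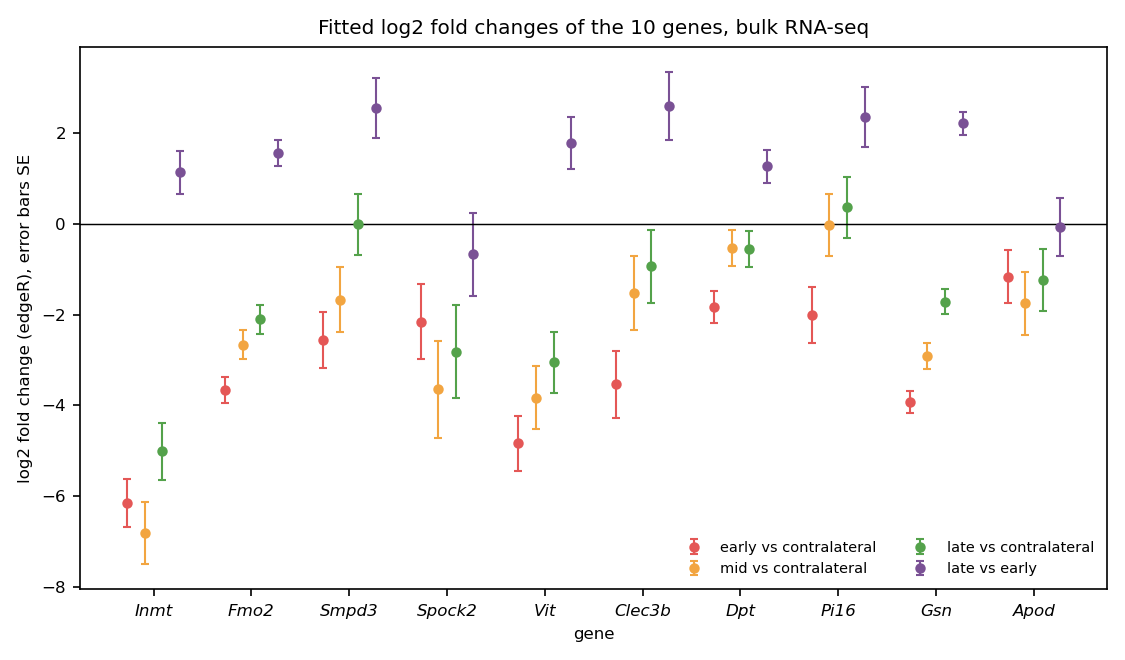
Log2 fold changes (vertical axis) of the 10 genes (horizontal axis) in early, mid and late AVFs against contralateral veins, with bars for the standard error. A further series of points shows late against early AVFs. Against veins, *Inmt* lies at -5.01 or lower at all 3 times, *Gsn* climbs from -3.93 to -1.71, and *Pi16* ends at 0.36.

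To set the members beside fibroblast content, each was expressed relative to the mean log2 CPM of 11 pan-fibroblast genes (collagens, *Pdgfra*, *Lum*, *Dcn* and others) of the same library. That reference was 10.42 ± 0.51 in veins, and 9.39 ± 1.42, 11.25 ± 0.22 and 11.23 ± 0.30 in the AVFs of the 3 times. On this relative scale *Inmt* was lower than in veins by 5.51, 7.62 and 5.57 log2 units in early, mid and late AVFs. *Fmo2* was lower by 2.74, 3.35 and 2.72, and *Gsn* by 2.94, 3.54 and 2.35. *Dpt* was lower by 1.16, 1.11 and 1.12, whereas *Pi16* went from 2.13 lower in early to 0.28 lower in late AVFs. The reference genes themselves changed within fibroblasts: in the single-cell libraries the fibroblasts' *Col1a1* was 1.32 times the vein level in early AVFs and 0.556 times in late AVFs. The median over the 10 members was -2.55, -2.82 and -2.12 with this reference and -3.34, -2.55 and -1.92 against *Pdgfra* alone. With the 6 that are not collagens, every member stood higher relative to veins at each time than with the 11. Early *Inmt* was then 4.98 lower and early *Gsn* 2.41 lower, and late *Pi16* was 0.05 higher. *Smpd3* in late AVFs was 0.26 lower with the 11 genes and 0.07 higher with the 6 that are not collagens.

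Other genes of resting fibroblasts were taken as lists. Of 12 genes that the study itself named for quiescent or homeostatic fibroblasts on these samples, and that are therefore no independent evidence of direction, 10 were called lower and 1 higher in early AVFs, beside 6.45% and 6.17% of all genes. In late AVFs 1 was lower and 1 higher (2.85% and 2.49% of all genes). From early to late 6 were called higher, beside 0.726% of all genes, and this contrast rests on the same early libraries. *C7*, a terminal complement component, was at 372 CPM in veins and 4.25 CPM in early AVFs (log2 fold change -6.54 ± 1.10). *Podn*, a leucine-rich proteoglycan, was at 222 and 9.84 CPM (-4.62 ± 0.62), and *Ltbp4*, which binds latent TGF-β, at 530.1 and 46.9 CPM (-3.57 ± 0.31). *Apoe*, which macrophages also make, rose (3056 to 7324 CPM). In late AVFs *Pcolce2*, a procollagen processing enhancer, was called lower (303 to 100.4 CPM) and *Eln*, elastin, higher (591 to 2922 CPM).

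Of 30 genes commonly used to mark resting fibroblasts in other organs, 29 passed the count filter, 12 were called lower in early AVFs and 1 higher (6.45% and 6.17% of all genes), and 2 were lower and 1 higher in late AVFs (2.85% and 2.49%), where the shares are near those of all genes. The early losses were led by *Adh1*, an alcohol dehydrogenase (205 to 15.4 CPM), *Abca8a*, a lipid transporter (319 to 37.3 CPM), and *Hsd11b1*, which regenerates active glucocorticoid (214 to 30.7 CPM). *Hsd11b1* stayed low in late AVFs at 26.5 CPM (log2 fold change -3.20 ± 0.47). The one that rose in both was *Ptgis*, prostacyclin synthase (30.8 CPM in veins, 117 early, 148 late). The median log2 fold change of the list was -1.22 early and -0.33 late.

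Detoxifying enzymes were taken as a list of their own because of *Inmt* and *Fmo2*. Of 14, 7 were called lower in early and 5 in late AVFs (6.45% and 2.85% of all genes) and none higher, with a list median of -1.56 and -1.85. The late count of 5 was 3 without late replicate 24, 2 in female mice alone and 1 without the muscle- or parathyroid-bearing AVFs, and 1 gene was called higher in 6 early and 4 late fits of the 25 that left out 1 library. *Gstm1*, a glutathione transferase, fell from 1834 to 150 CPM in early AVFs and stood at 464 CPM in late AVFs. *Cyp2f2* fell from 155 to 12.4 CPM in early AVFs, and *Gstt1* from 271 to 73.9 CPM in late AVFs. *Adh1* was at 15.4 CPM in late AVFs. Adipocytes express *Adh1* as well, and the adipocyte markers of the same libraries moved with it in the ranges given above, whose part was not tested.

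Relatives of the 10 genes by family were mostly called in neither direction. Of 28, 22 passed the count filter, 5 were lower and 1 higher in early AVFs (6.45% and 6.17% of all genes), and 2 were lower in late AVFs (2.85%). The early count of 5 was 3 without contralateral replicate 633 or early replicate 5, and the late count of 2 was 1 without late replicate 19 or 24. The early count of 1 higher was 2 in 5 of the 25 fits without 1 library. *Fmo1*, a neighbor and relative of *Fmo2*, fell from 387 to 33.9 CPM early and was at 83.8 CPM late (log2 fold change -2.40 ± 0.51). *Rbp4*, a lipocalin like *Apod*, fell from 137 to 28.8 and 21.8 CPM. *Clec11a*, *Svil* and *Crispld2* were lower in early AVFs by 1.79, 1.65 and 1.48 log2 units, and *Capg*, an actin-capping relative of *Gsn*, was higher by 1.51.

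Genes of activated fibroblasts moved the other way. The study itself reports some of them, such as *Spp1* and *Col8a1*, as raised in these samples. The list was chosen with earlier results of these data known, so it is no independent evidence of direction. Of 16, 10 were called higher and 1 lower in early AVFs (6.17% and 6.45% of all genes), and 9 higher and 1 lower in late AVFs (2.49% and 2.85%). The late count of 9 was 4 without late replicate 16 or 19, 5 without late replicate 17 or 24 or contralateral replicate 35 or 633, and 1 in female mice alone. *Spp1*, osteopontin, rose from 23.6 to 4660.4 CPM in early AVFs and was at 678 CPM late, and macrophages make it too. *Adam12*, a membrane metalloprotease, rose from 2.57 to 99.2 CPM, and *Cthrc1*, a secreted matrix regulator, from 22.5 to 562 CPM. *Col8a1*, a short-chain collagen, was at 6.60 CPM in veins and 656 CPM in late AVFs. The one called lower at both times was *Acta2*, smooth muscle actin (8154 CPM in veins, 1240 early, 2327 late), which is also 1 of the 7 smooth muscle markers. Of the 11 pan-fibroblast genes, 3 were called lower in early AVFs (*Dcn*, *Serping1*, *Lum*) and none in either direction in late AVFs.

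Over the 25 libraries, the genes outside the list whose standardized log2 CPM lay closest to the mean profile of the 10 members were *Cavin1* (root mean square difference 0.307 SD), *Gucy1a1* (0.313), *Gdf10* (0.320), *Aldh1a1* (0.332) and *Ccl11* (0.338). Among the members themselves, *Fmo2* (0.317), *Gsn* (0.320) and *Vit* (0.357) lay closest to that profile, and *Apod* (0.742) and *Spock2* (0.768) farthest. The distance of a member is helped by its own share in the mean.

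The single-cell libraries show in which cells the transcripts lay. Of 26438 barcodes, 16893 passed the study's limits on genes and mitochondrial reads (6319 from contralateral veins, 4753 from early and 5821 from late AVFs), and 14–19 barcode sequences were shared between any 2 libraries. Cells were clustered without the 10 genes, and clusters 0 and 2 were named fibroblasts by the 11 fibroblast markers. Cluster 6 (57 cells from veins, 518 from early and 511 from late AVFs) also had 11 of these markers raised. Its median depth was only 0.0953 of the library median, and its leading genes were mixed, among them *Pth*, *S100a9*, *Lyz2* and *Col1a1*. It was left unnamed and is not counted among the fibroblasts below. Fibroblasts numbered 1829, 436 and 1945, but cluster 2 held 1705 of those from veins and cluster 0 held 422 and 1894 of those from early and late AVFs, so the values below compare different clusters. Median depth was 4471 UMIs per fibroblast in veins, 31119.5 in early and 25084 in late AVFs. Counts were therefore summed over cells and given as CPM of all UMIs of those cells, and intervals are 95% and cover counting error only.

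In fibroblasts, 10 of 10 members were at least 2-fold lower in the early AVF library than in the vein library, beside 10.2% of the 8115 genes with a mean of at least 10 CPM over the 3 libraries, and 8 of 10 in the late AVF library, beside 6.31%. These counts compare 1 library each and cells of different clusters and depths, and the members were chosen for lower levels in AVFs, so nothing is read from them. *Inmt* stood at 964, 11 and 53.3 CPM in fibroblasts of veins, early and late AVFs, an 87.5-fold and an 18.1-fold lower level (ratio 0.0114, 0.00953–0.0136, and 0.0553, 0.0530–0.0576). *Fmo2* was at 867, 55.7 and 115 CPM (ratios 0.0642 and 0.133). *Gsn* was at 16707, 792 and 6302 CPM (ratios 0.0474 and 0.377).

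Among the lipid and matrix genes, *Smpd3* was at 103, 1.78 and 23.5 CPM (ratios 0.0173 and 0.228), *Spock2* at 144, 2.97 and 8.11 CPM (0.0206 and 0.0563), and *Vit* at 357, 11.2 and 51.0 CPM (0.0313 and 0.143). *Clec3b* was at 3547, 466 and 1702 CPM (0.131 and 0.480) and *Apod* at 1252, 183 and 351 CPM (0.146 and 0.281). *Dpt* was at 2481, 1187 and 2582 CPM, with a late ratio of 1.04 (1.03–1.05), and *Pi16* at 775, 261 and 1169 CPM, with a late ratio of 1.51 (1.48–1.54). *Dpt* and *Pi16* were thus the members whose fibroblast level in late AVFs was at or above that of veins.

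**Figure D3:**
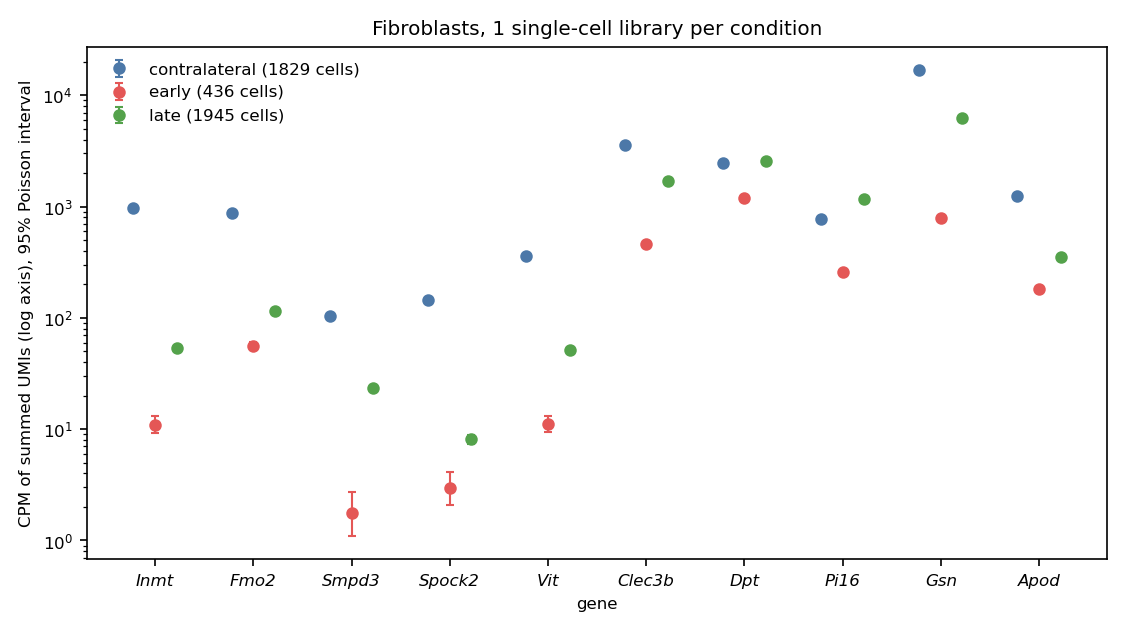
Level (CPM) in fibroblasts of the 3 single-cell libraries on a logarithmic axis, 1 group of points per gene, with 95% counting intervals. Every gene is lowest in early AVFs, and in late AVFs *Dpt* (2582 CPM) and *Pi16* (1169 CPM) stand at or above the vein values of 2481 and 775 CPM.

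Shares of fibroblasts with at least 1 UMI are affected by depth, so each cell was also thinned to 1000 UMIs, which kept 1555 of 1829, 430 of 436 and 1943 of 1945 fibroblasts. *Inmt* was found in 60.9%, 3.44% and 18.9% of fibroblasts unthinned and in 38.7%, 0.930% and 4.22% thinned. *Gsn* was found in 99.2%, 90.4% and 99.7% unthinned and in 99.0%, 40.0% and 92.3% thinned. *Pi16* was found in 52.7%, 45.2% and 84.3% unthinned and in 32.3%, 14.2% and 44.1% thinned. A thinned fibroblast of a vein carried a median of 5 of the 10 members, against 1 in early and 3 in late AVFs, and 53.8%, 2.09% and 13.2% of cells carried 5 or more.

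T cells were set beside the fibroblasts as a measure of background, and whether T cells make any of these transcripts themselves was not tested. Their median depth was 3602, 5601 and 6431 UMIs. *Inmt* was found in 6.36% of 629 T cells of veins, in 0 of 167 of early AVFs (up to 2.18%) and in 0.705% of 567 of late AVFs. *Gsn* was found in 82.4%, 16.8% and 62.3% of T cells, at 725, 26.2 and 273 CPM, which moved with the fibroblast level of the same library. In early AVFs *Spock2* was no higher in fibroblasts (2.97 CPM, 2.07–4.12) than in T cells (6.35 CPM, 2.74–12.5). *Smpd3* at 1.78 CPM (1.10–2.72) was within the interval of T cells (0.0201–4.42). The early fibroblast levels of both thus could not be set apart from those of T cells. *Spock2* in late AVFs was likewise at 8.11 CPM in fibroblasts and 8.58 CPM in T cells.

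Fibroblasts held most of the UMIs of the members in veins, from 77.8% for *Fmo2* to 96.0% for *Dpt*. *Inmt* remained a fibroblast transcript in early (97.7% of 133 UMIs) and late AVFs (93.5% of 2819). *Gsn* did so less in early AVFs (45.0% of 20774 UMIs, against 93.5% in veins and 90.0% in late AVFs). Outside fibroblasts and unnamed cells the highest level of *Gsn* was 2645 CPM in the 34 smooth muscle cells of the vein library. The highest of *Clec3b* (341 CPM), *Inmt* (76.9 CPM) and *Vit* (46.7 CPM) were in platelets of the vein library, and those of *Dpt* (292 CPM) and *Pi16* (161 CPM) in platelets of late AVFs, whose cells had a median of 790.0 and 636 UMIs. Whether these platelet values are background from other cells was not tested. *Apod* reached 254 CPM in 24 Schwann cells of late AVFs, *Spock2* 40.8 CPM in endothelial cells and *Smpd3* 11.8 CPM in B cells of veins.

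*Fmo2* was the member with the most varied sources. In veins it stood at 867 CPM in fibroblasts, 858 CPM in 817 endothelial cells and 146 CPM (107–193) in 34 smooth muscle cells. In early AVFs it was at 55.7, 36.6 and 1153 CPM in the same classes (223 smooth muscle cells), and in late AVFs at 115, 50.7 and 493 CPM (502 smooth muscle cells). Smooth muscle cells thus held 7.92 times (5.96–10.8) the vein level in early and 3.39 times (2.55–4.60) in late AVFs, while the endothelial ratio was 0.0426 (0.0275–0.0631) and 0.0591 (0.0385–0.0868). Only 9.90% of the *Fmo2* UMIs of early AVFs lay in fibroblasts, and 46.2% of those of late AVFs. With 34 smooth muscle cells in 1 vein library, this reversal has no replicate.

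**Figure D4:**
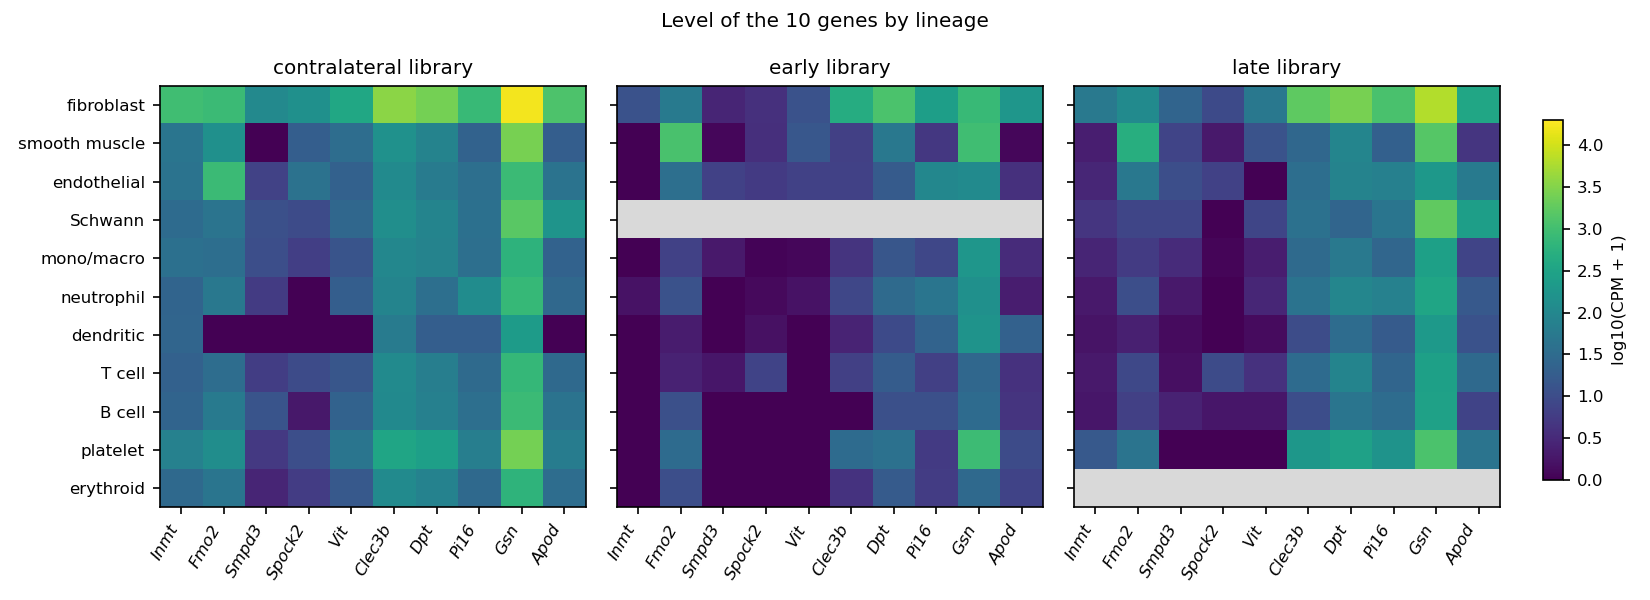
Log10(CPM + 1) of the 10 genes (columns) in each cell class (rows), with 1 panel for each of the 3 single-cell libraries. Brighter color means a higher level, and classes under 20 cells are in gray. Fibroblasts are the brightest row for most genes in each library. Within the early and the late library *Fmo2* is brightest in smooth muscle cells (1153 and 493 CPM).

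Fibroblasts were divided further into 10 subclusters, numbered 0 to 9 and described by their genes alone, since a subcluster against the rest is no test. Subclusters 1 and 3, with 716 and 481 cells from veins and 2 and 1 from early AVFs, held the highest *Inmt* (1166 and 1038 CPM), *Fmo2* (1019 and 1008 CPM) and *Spock2* (179 and 146 CPM), along with *C7* (477 and 712 CPM). Subcluster 2, with 5 cells from veins, 260 from early and 229 from late AVFs and led by *Thbs4*, *Tnc* and *Cilp*, held 3.76 CPM of *Inmt*, 15.1 of *Fmo2* and 1459 of *Gsn*, with *Postn* at 3761 CPM. Even so it kept *Dpt* at 1714 and *Pi16* at 463 CPM.

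Subcluster 7 (136 cells from veins, 9 from early and 246 from late AVFs) was led by *Pla1a*, *Cd55* and *Dpp4* and held the highest *Pi16* (2881 CPM), *Dpt* (3096 CPM) and *Smpd3* (209 CPM) but little *Inmt* (36.6 CPM) and *Fmo2* (27.5 CPM). Subcluster 9 (26 cells from veins, 2 early, 1 late), led by *Apod*, *Sfrp5* and *Myoc*, had *Apod* at 31841 CPM and *Dpt* at 48.0 CPM. The highest *Inmt* and the highest *Pi16* were thus in different subclusters. Subcluster 5 (402 of 421 cells from veins) had a median of 944 UMIs and was led by hemoglobin genes, and subcluster 8 (72 cells) by immune genes.

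Subcluster 7 is the one with over 100 cells from both veins and late AVFs, so levels could be set side by side within it. Its *Inmt* was 147 CPM in veins and 9.72 CPM in late AVFs (ratio 0.0662, 0.0484–0.0892), *Smpd3* 616 and 112 CPM (0.181, 0.163–0.201), and *Gsn* 13765 and 7542 CPM (0.548, 0.539–0.557). *Pi16* was 3163 and 2794 CPM (0.883, 0.855–0.913), *Dpt* 2615 and 3256 CPM (1.25, 1.20–1.29) and *Apod* 166 CPM in both (0.999, 0.867–1.15). The ratio was 0.224 for *Spock2*, 0.352 for *Vit*, 0.445 for *Fmo2* and 0.769 for *Clec3b*. In subcluster 0, with 36 cells from veins and 660 from late AVFs, the late ratio was 0.164 for *Inmt*, 0.253 for *Smpd3*, 0.455 for *Gsn*, 0.267 for *Apod*, 1.27 for *Dpt* and 1.36 for *Pi16*. That of *Smpd3* rested on 5 UMIs of veins (0.103–0.807). Subclusters 7 and 0 thus differed for *Apod*, and in both *Inmt* and *Smpd3* had lower ratios than *Dpt* and *Pi16*.

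**Figure D5:**
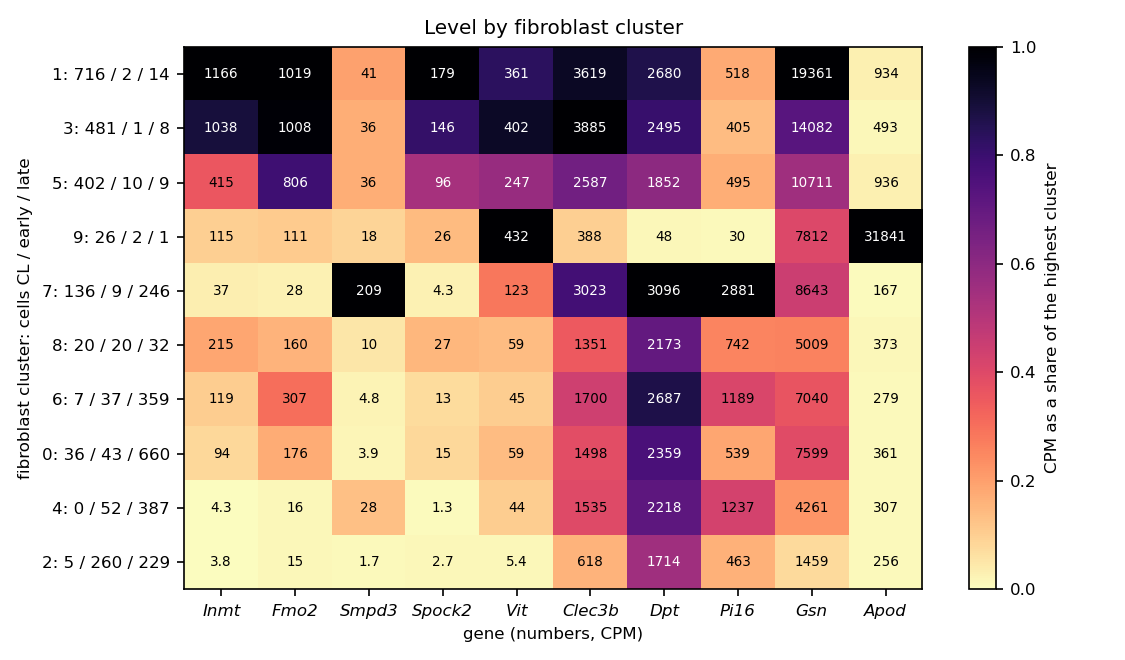
Level (CPM, printed in each cell) of the 10 genes (columns) in the 10 fibroblast subclusters (rows, with the numbers of cells from veins, early and late AVFs), shaded relative to the highest subcluster of each gene. *Inmt* is highest in subcluster 1 (1166 CPM), *Pi16* and *Smpd3* in subcluster 7 (2881 and 209 CPM), and *Apod* in subcluster 9 (31841 CPM).

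Set side by side, bulk log2 fold changes and fibroblast log2 ratios lay closest over both times, by the larger of the early and late gaps, for *Vit* (-4.84 and -5.00 early, -3.05 and -2.81 late). For *Clec3b* they were -3.54 and -2.93 early and -0.94 and -1.06 late, for *Inmt* -6.15 and -6.45 early and -5.01 and -4.18 late, and for *Fmo2* -3.66 and -3.96 early and -2.10 and -2.91 late. They were farthest apart for *Smpd3*, at -2.56 and -5.86 early and at -0.01 and -2.13 late, and for *Spock2*, at -2.15 and -5.60 early. The early fibroblast levels of both could not be set apart from those of T cells, so the size of these early gaps is uncertain. The bulk value for *Spock2* included the early AVF that stood at 38.8 CPM. Late *Pi16* was 0.36 in bulk, less than its SE, and 0.59 in fibroblasts. Its bulk means in veins and late AVFs were 175 and 383 CPM in females but 284 and 179 CPM in males (2 per group). Late *Dpt* was -0.56 in bulk and 0.06 in fibroblasts. The measures come from different animals and postop days, and no error can be put on the single-cell ratio beyond counting.

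Other fibroblast genes moved alongside in the single-cell libraries. *C7* was at 478 CPM in fibroblasts of veins, 5.17 of early and 48.7 of late AVFs, and *Gdf10*, a TGF-β family ligand, at 1665, 144 and 258 CPM. *Hsd11b1* was at 204, 21.5 and 45.4 CPM, *Gstm1* at 619, 69.2 and 327 CPM and *Fmo1* at 178, 31.6 and 35.9 CPM. *Postn* ran the other way, at 84.5, 3650.0 and 1108 CPM. *Pdgfra* was at 516, 279.6 and 285 CPM. The early ratio of *Pdgfra*, 0.542, was above that of each of the 10 members.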

How the data were processed

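The deposited bulk table holds raw counts per Ensembl gene for 25 poly(A) libraries, and the deposited single-cell matrices hold UMI counts per cell, made by the authors with Cell Ranger (6.0.2 in the file headers). The submitters' processing notes name STAR, Cell Ranger, GRCm38 and mm10 without roles, and the bulk counter is not given in the sources used here. Gene names came from the single-cell gene lists (32210 of 56980 genes) and the reference table (19962), and 4808 genes stayed unnamed. The 10 genes and all gene lists were chosen with earlier results of these data known.

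Bulk counts were fitted with edgeR 4.0.16 (TMM, quasi-likelihood, 1 factor for the 4 groups over all 25 libraries) on genes whose counts, scaled by DESeq2 size factors, averaged 100 or more, and the fit was tested on simulated data first. Calls required a Benjamini-Hochberg adjusted p under 0.01 and a log2 fold change of at least 1, and the sex by time interaction an adjusted p under 0.05. All tests are two-sided. The labels give no batch. Alternatives were DESeq2 1.42.0, its size factors, other count filters, sex as a covariate, female mice alone and leaving out each library. Named list genes were the 3 of largest change in each direction among those called in early or late AVFs, called relatives of the members, and the 5 genes nearest to the members' mean profile.

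Cells with 200–6000 genes and at most 10% mitochondrial UMIs were kept and clustered (scanpy 1.11.5, 2000 variable genes without members, lists or markers, 12 components, Leiden resolution 0.5). Scrublet marked 0, 2 and 120 cells as doublets in veins, early and late AVFs, so in the first 2 libraries it did not work, and doublets were kept. Intervals are exact 95% Poisson or binomial intervals and cover counting error only, and the limit for a count of 0 is 3 counts.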

Additional observations from a re-analysis of the deposited data

Results flagged for a closer look

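Of 40 sets of libraries (10 genes in 4 groups), 7 held a library that stood apart from the rest of its group by Dixon's criterion. For normally distributed values chance gives about 1 in 20. Here the criterion was applied to CPM without a log, and all 7 were the highest of their group, so the chance share may be higher. The 4 in early AVFs fell on 2 libraries. Early replicate 7 had *Spock2* at 38.8 CPM, against 2.25 CPM in the next highest, and *Smpd3* at 8.45 CPM, against 2.57 CPM. Early replicate 10 had *Dpt* at 794 CPM, against 396 CPM, and *Clec3b* at 39.1 CPM, against 17.7 CPM. In the other groups, *Fmo2* was 224 CPM in mid replicate 13 (next 106 CPM), *Dpt* 1611 CPM in contralateral vein replicate 34 (next 1046 CPM) and *Apod* 610.0 CPM in late replicate 16 (next 159.6 CPM). Early replicate 7 is 1 of the 4 early AVFs with platelet markers of 2756 CPM or more, and early replicate 10 is 1 of the 2 early AVFs left out for skeletal muscle or parathyroid markers. The part of either in these values was not tested.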

How the results depend on the processing

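Leaving out the AVFs with high platelet markers (early replicates 3, 5, 6 and 7), or those with skeletal muscle or parathyroid markers (2 early, 3 mid and 2 late AVFs), was chosen after seeing the data. Of the 7 members called lower in early AVFs, 3 were called in female mice alone and 7 to 8 when single libraries were left out. Of the 4 in mid AVFs, 2 were called without the muscle- or parathyroid-bearing AVFs and 4 to 5 without single libraries. Of the 4 in late AVFs, 1 was called in female mice alone, 1 without those AVFs, and 3 to 4 without single libraries. The count higher in mid than in early AVFs was 0, 1 by DESeq2, and 0 to 1 without single libraries (1 without early replicate 1 or 10). Over all genes 1 was called higher there, 17 and 48 without these libraries, and 14 and 16 without early replicate 2 or 4. The count higher in late than in early AVFs was 2, 0 in female mice alone, 1 without either set of AVFs, 5 by DESeq2, and 1 to 5 without single libraries, lowest without late replicate 16 or 17 and highest without early replicate 10. Over all genes that contrast had 381 calls, and 6 without the platelet-rich and 13 without the muscle- or parathyroid-bearing AVFs.

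The late-over-early sign of *Spock2* and *Apod* was not stable. *Spock2* was 1.79 without the platelet-rich AVFs and ranged from -1.27 to 1.44 without single libraries. *Apod* was 0.69 in female mice alone, 0.37 without the muscle- or parathyroid-bearing AVFs, and ranged from -0.82 to 0.15. The cause was not tested. *Vit* in late AVFs lost its call in 4 of 25 fits without 1 library (each time a late AVF, 17, 19, 23 or 24) with a log2 fold change of -3.13 to -2.93. Filters that kept more low genes moved the median of all genes in early AVFs from -0.01 to 0.19 or 0.51 and the share of higher calls from 48.9% to 73.4% or 77.0%. In single-cell fibroblasts, with 1 library per condition, the members at least 2-fold lower numbered 9 in early and 7 in late AVFs when cells were thinned, against 10 and 8. No paired analysis was possible because the bulk groups share no replicate numbers. Early replicate 6 had 9 counts of *Vit* and 14 of *Smpd3*, and early replicate 3 had 20 of *Spock2*, which limits the precision of their fold changes.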
